A study of Mus musculus with 2 samples.

Results

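The genes named for proteasome subunits were described here by the CTCF binding found around them in the intestine of newborn mice. They were chosen by name alone: protein-coding genes of chromosomes 1 to 19 in GENCODE M21 whose symbol opens with Psma, Psmb, Psmc, Psmd, Psme, Psmf or Psmg and continues with a digit. This gave 49 of 20807 protein-coding genes. Psmd10 lies on the X chromosome and was left out with 4 noncoding genes that have symbols of this form. Psmc3ip was taken by its symbol but encodes a partner of an ATPase subunit that acts in meiotic recombination. It counts in the totals over all 49 genes and is left out of the groups by role.

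CTCF-bound DNA was recovered by immunoprecipitation and sequenced (ChIP-seq) from a single group of 2 biological replicates. The mice were of strain B6NCrl at postnatal day 0, and the labels name no allele or treatment. Each replicate was ground intestine pooled from several dissections, sex was not collected, and both replicates carry the same donor label, so the spread between them may be partly technical. As there is no other condition, the values give the places and strength of binding. Whole intestine holds many cell types, and a weak peak may stand for few cells or for weak binding in many, which cannot be told apart. Peak lists hold no expression values, so the tissue was not checked against marker genes.

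The proteasome degrades proteins that carry ubiquitin chains. Its barrel-shaped core has outer alpha rings that gate entry and inner beta rings that hold the cutting sites, and a regulatory particle on its end recognises ubiquitin, unfolds the protein and threads it inward through a ring of ATPases. Interferon exchanges catalytic beta subunits for immune forms, other activators can replace the regulatory particle, and chaperones assemble the rings. CTCF, a protein with many zinc fingers, recognises a long DNA motif, takes part in forming chromatin loops and domain boundaries, and also binds close to many promoters.

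The DNA under the strongest promoter peaks is given first, because there a CTCF site lies close to the start of a gene of the set. Psmc3ip, which is no subunit, is among them. Each peak has a summit, its point of highest signal, and a 19-base CTCF matrix was searched within 100 bases of it. Capitals mark the best match, written 5′ to 3′ on the strand of the match, with 20 bases on each side from the RefSeq GRCm38.p6 genome, which has mm10 coordinates. The 6 genes are those with the strongest promoter summits among members whose summit held a match.
Psmd6: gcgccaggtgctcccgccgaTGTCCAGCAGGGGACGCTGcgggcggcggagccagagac
Psmc6: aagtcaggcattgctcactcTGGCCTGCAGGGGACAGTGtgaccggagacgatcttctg
Psmc4: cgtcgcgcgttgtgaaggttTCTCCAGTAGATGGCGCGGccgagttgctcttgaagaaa
Psmc3ip: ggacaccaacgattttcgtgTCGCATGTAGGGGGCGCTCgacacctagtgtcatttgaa
Psmd11: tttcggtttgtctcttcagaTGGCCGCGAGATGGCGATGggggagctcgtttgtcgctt
Psma1: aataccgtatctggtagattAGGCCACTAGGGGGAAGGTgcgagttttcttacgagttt

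On mm10 these stretches lie at chr14:14120995-14121053 (minus strand) for Psmd6, chr14:45329600-45329658 (plus) for Psmc6 and chr7:28050299-28050357 (plus) for Psmc4. Those of Psmc3ip, Psmd11 and Psma1 lie at chr11:101095819-101095877, chr11:80428445-80428503 and chr7:114276662-114276720, all on the plus strand. All 6 are upstream of the gene's start in sequence between genes. The matrix scores ran from 12.3 at Psmc3ip to 17.6 at Psmc4, against a threshold of 9.56, the score that 5% of windows beside training peaks reached. The match read in the gene's direction at Psmd6, Psmc6 and Psmd11 and against it at Psmc4, Psmc3ip and Psma1.

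5 further summits, chosen after their values were seen, show the range of sequence under strong peaks. Psme3 and Psmd9 had the strongest summits of the 49 genes, outside their promoters. Psmd1 and Psma2 had strong peaks whose best-scoring 19 bases, again in capitals, stayed under the threshold, with scores of 5.12 and 4.55. Psmg3 is shown for its likeness to Psma2: the capitals of both hold the word CAGAAGAGG.
Psme3: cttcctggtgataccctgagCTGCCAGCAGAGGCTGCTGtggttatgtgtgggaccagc
Psmd9: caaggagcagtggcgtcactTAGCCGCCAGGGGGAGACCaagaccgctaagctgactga
Psmd1: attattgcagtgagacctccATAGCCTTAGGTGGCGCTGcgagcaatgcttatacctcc
Psma2: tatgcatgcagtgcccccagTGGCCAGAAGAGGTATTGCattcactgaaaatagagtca
Psmg3: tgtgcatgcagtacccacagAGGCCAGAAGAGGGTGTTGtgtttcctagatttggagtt

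The stretches lie on mm10 at chr11:101323756-101323814 (plus strand, Psme3), chr5:123171723-123171781 (minus, Psmd9), chr1:86064303-86064361 (plus, Psmd1), chr13:14618943-14619001 (plus, Psma2) and chr5:139827771-139827829 (plus, Psmg3). At Psma2 and Psmg3 the matched bases are lower case in the reference genome, the mark for repeats and low-complexity sequence. CAGAAGAGG, searched on both strands within 100 bases of the summit, occurred at 20 of the 104 summits of proteasome genes (19.2%) and at 14.4% of all 71756 autosomal peaks of the list. At all 20 the best match lay in masked sequence. Of the 73 summits of these genes with a motif, 24 had it in masked sequence (32.9%), and of all peaks with a motif 28.8% did.

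CTCF summits lay near most proteasome genes. Of the 49 genes, 42 (85.7%) had a summit of the optimal list no further than 10 kb from a transcription start site (TSS), against 74.4% of all protein-coding genes. The optimal list is the authors' set of 73465 peaks that passed a reproducibility filter. Within 1 kb, taken here as the promoter, 26 genes (53.1%) had a summit, against 46.7%. Without Psmc3ip the counts were 41 and 25 of 48. Since these genes form 1 list with no second condition, both shares are descriptions, and no test of the list was made.

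**Figure D1:**
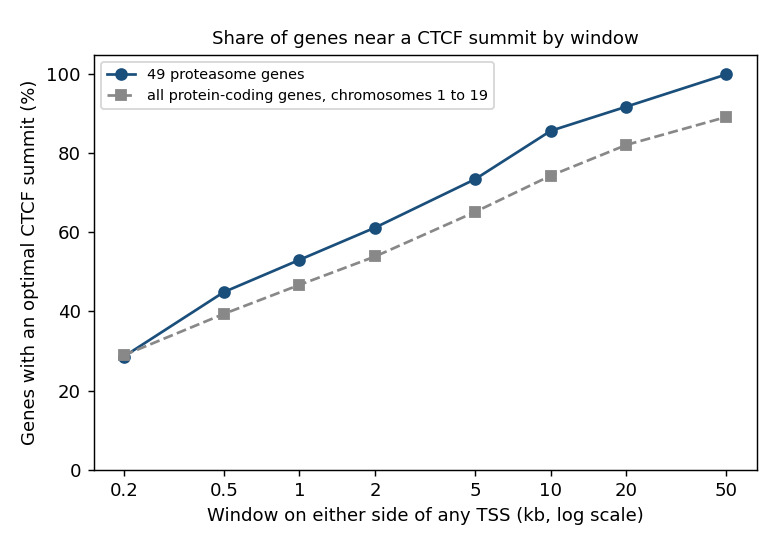
Share of genes with an optimal CTCF summit (y axis, %) against the window on either side of any TSS (x axis, kb, log scale), for the 49 proteasome genes (circles) and all 20807 protein-coding genes (squares). The curves are close at 0.2 kb, 28.6% against 28.9%, and at 10 kb stand at 85.7% and 74.4%.

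The share grew with the window in both sets. At 0.2 kb it was 28.6% for proteasome genes and 28.9% for all genes, and at 2 kb 61.2% and 53.9%. At 20 kb it was 91.8% and 82.2%, and at 50 kb all 49 genes had a summit, against 89.2%. Of the 42 genes bound within 10 kb, 11 had 1 summit and 31 had more, up to 5, and the summits made 104 in all after shared ones were counted once. The median was 2 summits per bound gene in both sets.

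Proteasome genes differed from all protein-coding genes in features of gene structure. Of the 49, 32 (65.3%) had a CpG-rich promoter, defined here as at least 50% GC and a CpG ratio of at least 0.6 from 250 bases before to 50 after the gene's start, against 42.5% of all protein-coding genes. Within 10 kb, 26 of these 32 genes (81.2%) had a summit, against 91% of protein-coding genes with such promoters, and within 1 kb 16 (50%), against 66.9%. Of the other 17 genes, 16 (94.1%) had one within 10 kb and 10 (58.8%) within 1 kb, against 62.1% and 31.8%. CpG content was scored only at the gene's 5′ end, while summits were counted at any annotated TSS. Class and summit can therefore belong to different starts of a gene. Psma6 and Psmf1, both in the class without a CpG-rich promoter, had no summit within 1 kb of the 5′ end alone. The median number of coding neighbours within 10 kb was 1 for proteasome genes and 0 for all genes. Of the 18 proteasome genes with a CpG-rich promoter and at least 1 such neighbour, 17 (94.4%) had a summit within 10 kb, against 92.7%, and 9 (50%) within 1 kb, against 68.0%. The median number of annotated TSSs was 5 for proteasome genes and 3 for all genes, and a longer list of starts gives a gene more windows. Among genes with 6 or more TSSs, 18 of 21 proteasome genes (85.7%) had a summit within 10 kb, against 93.4%. With 2 to 5 TSSs it was 22 of 25 (88%) against 72.0%, and with 1 TSS 2 of 3 (66.7%) against 54.9%. Within 1 kb the shares in the same order were 52.4%, 56% and 33.3%, against 70.3%, 43.4% and 23.5%. The part of these features in the shares was not tested.

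The strongest summit of a gene mostly lay outside its promoter. It was within 1 kb in 9 of the 42 genes (21.4%), against 31.2% of all bound protein-coding genes, and its median distance from a TSS was 4475 bases, against 2999. The median signal of the strongest summits was 297, with a range of 53.4 to 562, and the median over all bound protein-coding genes was 240. The signal is the authors' enrichment value, and 76.0 was its median over all optimal peaks. In 39 of the 42 genes (92.9%) the strongest summit exceeded 76.0, against 77.3% of bound protein-coding genes, and the exceptions were Psma4, Psmb1 and Psmb9. The member itself was the nearest coding gene for 25 strongest summits, and another gene was nearer for 17. The same share over all bound protein-coding genes was not computed, so this count has no background to be read against.

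**Figure D2:**
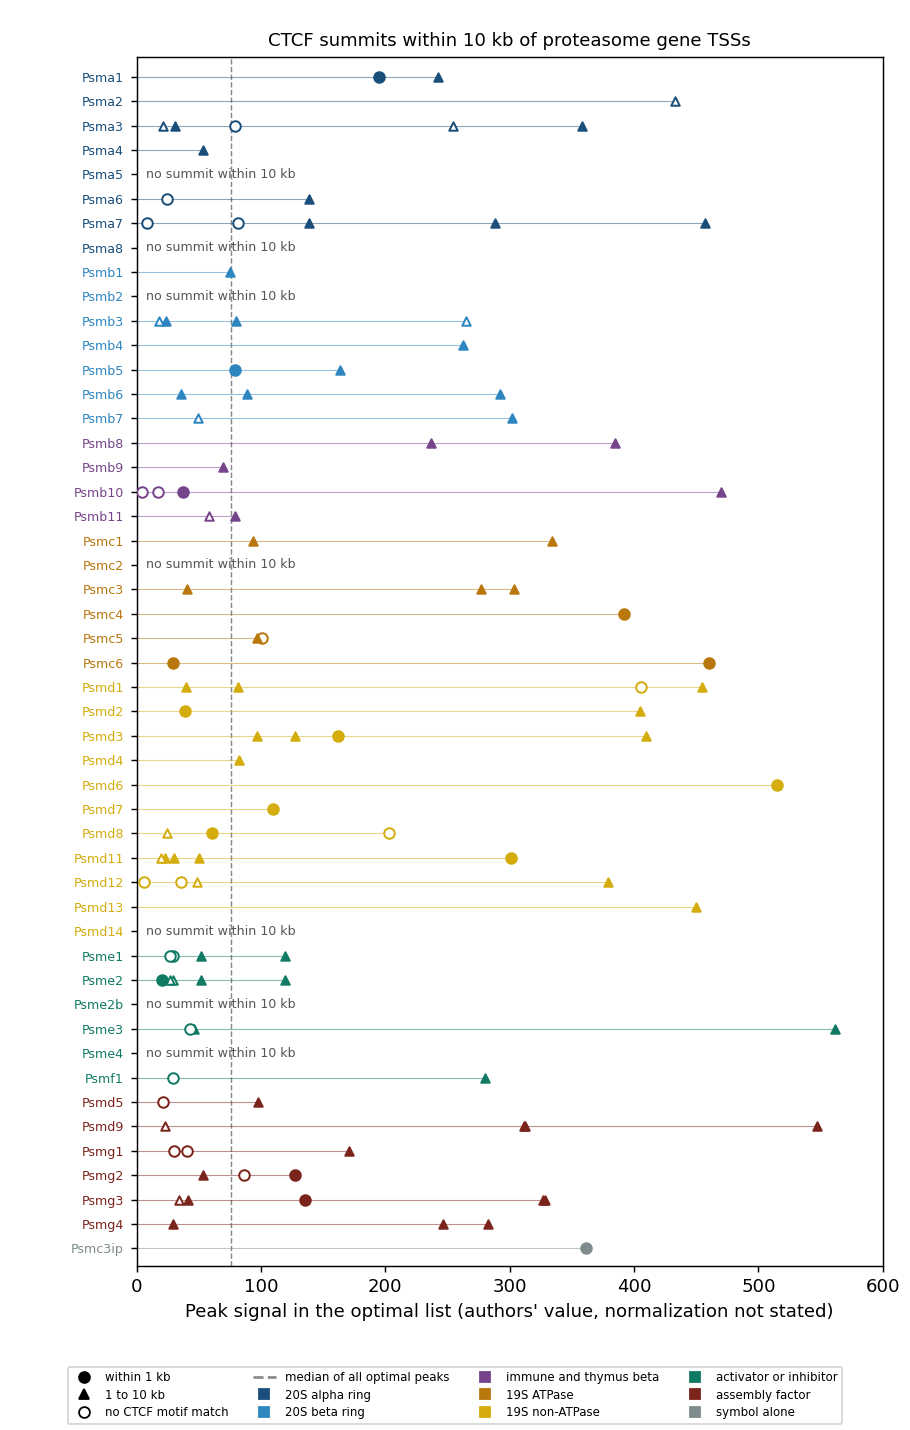
Peak signal (x axis, authors' value) of every optimal summit within 10 kb of each proteasome gene (rows, coloured by role), as circles within 1 kb and triangles beyond it; open symbols hold no CTCF motif match and the dashed line is the median of all optimal peaks. Psme3 and Psmd9 reach 562 and 547 outside the promoter, Psmd6 reaches 515 at its promoter, and 7 genes have no summit.

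Summits at promoters of proteasome genes had a lower median signal and a smaller share of motif matches than those further out. The 35 summits within 1 kb had a median signal of 60.8, and 18 of them were below 76.0. The 69 summits outside had a median of 127. Some of these lay at promoters of other genes, such as those at Tap2 and Slc39a13. A motif match was found at 16 of the 35 (45.7%) and at 57 of the 69 (82.6%). Over all autosomal peaks 72.5% held a match, and of flanking windows 4.61% did. Low promoter signals were not particular to these genes. The strongest summit within 1 kb had a median of 91.3 over the 26 genes bound there, against 89.2 over all protein-coding genes bound there.

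At the strongest summit within 10 kb, 38 of 42 genes (90.5%) had a motif match, against 77.8% of all bound protein-coding genes. Without Psmc3ip it was 37 of 41. The genes without a match were Psma2, Psmb3, Psmc5 and Psmd8. At the strongest summit within 1 kb, 14 of 26 genes (53.8%) had a match, against 51.4%. Restricting both sets to strongest summits above the median signal gave 35 of 39 (89.7%) and 85.3%. With the threshold that only 1% of flanking windows reach, the counts were 19 of 42 (45.2%) against 47.9%. Of the 38 matches, 19 read in the gene's direction and 19 against it.

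**Figure D3:**
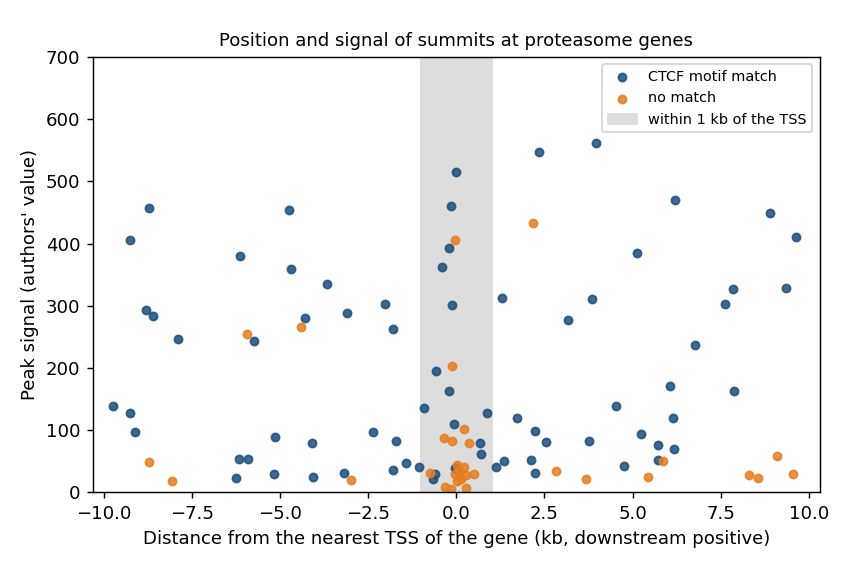
Signal of each summit (y axis, authors' value) against its distance from the nearest TSS of the proteasome gene (x axis, kb, downstream positive), with motif matches in blue and summits without one in orange; the grey band is the 1 kb window. Many orange points lie low inside the band, where 16 of 35 summits held a match, against 57 of 69 outside it.

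Among the 8 genes of the alpha rings, 6 had a summit within 10 kb and 4 within 1 kb, with a median strongest signal of 300. For this and the following groups by role, all protein-coding genes had 74.4% within 10 kb and 46.7% within 1 kb. Each group holds few genes, and the differences between groups were not tested. Psma7 had the strongest, at 457 and 8.71 kb upstream, inside an intron of its divergent neighbour Ss18l1 (221 in replicate 1 and 235 in replicate 2). At Psma2 the signal was 433 in an intron of the gene, 2.18 kb downstream (212 and 225), the summit shown above without a match. Psma1 had 242 at 5.74 kb upstream and 195 at 0.569 kb upstream, each with a match. Psma3 had 358 at 4.67 kb upstream (178 and 184) and 79.3 in its promoter.

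The promoter summits of Psma7, Psma3 and Psma6 had signals of 81.6, 79.3 and 24.3, and none of the 3 held a match. The summit of Psma7 lay in an untranslated exon of Ss18l1, nearest to the start of Ss18l1. The promoter summit of Psma6 stood at 15.8 in replicate 1 and 10.5 in replicate 2. It lay at a start other than the gene's 5′ end and was lost when that end alone was used. Psma4 had 1 summit, of 53.4, at 6.17 kb upstream. Psma5 and Psma8, the germ-cell form of an alpha subunit, had none within 10 kb.

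Of the 7 beta ring genes, 6 (85.7%) had a summit within 10 kb, against 74.4% of all protein-coding genes. Psmb5 alone had one within 1 kb (14.3%), against 46.7%. The median strongest signal was 264, against 240. Psmb5, Psmb6 and Psmb7 encode the catalytic subunits. Psmb7 had 302 at 2.03 kb upstream (143 and 158 in the replicates), Psmb6 had 292 at 8.80 kb upstream, nearest to Vmo1 (136 and 155), and Psmb5 had 163 at 7.86 kb downstream (79.9 and 83.9). These 3 summits all held a match.

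Among the structural beta genes, Psmb3 had 265 within 1 kb of a start of Pcgf2, 4.42 kb upstream, where the best score of 8.86 was under the threshold. Psmb4 had 263 at 1.80 kb upstream and Psmb1 75.5 at 5.73 kb downstream, both with the match in masked sequence. Psmb2 had no summit within 10 kb. The window decided this call, since its nearest summit lay at 10.4 kb with a signal of 52.2.

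All 4 genes of immune and thymus beta subunits had a summit within 10 kb, and Psmb10 alone had one within 1 kb. At Psmb10 the strongest, of 470, lay 6.20 kb downstream in an untranslated exon of Pskh1 (234 and 237), and its promoter had 37.3 (14.2 and 22.4). Psmb8 had 385 at 5.11 kb downstream (179 and 208). This peak, chr17:34204310-34204600, lies 0.104 kb upstream of the start of Tap2, a subunit of the peptide transporter for antigen presentation, and its match scored 18.6. Psmb9 had 69.4 at 6.16 kb downstream, with 20.8 in replicate 1 and 45.2 in replicate 2. Psmb11, the thymus form, had 79.5 at 4.10 kb upstream, which is the promoter peak of Psmb5, chr14:54617260-54617370, and counts for both genes.

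Of the 6 ATPase genes of the regulatory particle, 5 (83.3%) had a summit within 10 kb, against 74.4% of all protein-coding genes. Within 1 kb 3 (50%) had one, close to the 46.7% of all protein-coding genes. Psmc6 had 460 at 0.155 kb upstream (chr14:45329456-45329778), with 230 in replicate 1 and 233 in replicate 2. Psmc4 had 392 at 0.217 kb upstream (191 and 200). Psmc5 had 101 at 0.209 kb downstream in its intron (56.5 and 44.3), with no match, and shares the window with the start of Ftsj3. A second Psmc5 summit, of 96.8 at 9.12 kb upstream, held a match.

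Psmc1 had 334 at 3.67 kb upstream (156 and 179). Psmc3 had 303 at 7.60 kb downstream, in a coding exon close to the start of Slc39a13 (144 and 160). Both held a match. A weaker Psmc3 summit, of 40.5 with a match, lay 1.07 kb upstream, just outside the promoter window. Psmc2 had no summit within 10 kb. Psmc3ip, taken by symbol alone, had 1 summit, of 362 at 0.408 kb upstream (173 and 192).

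The non-ATPase genes of the regulatory particle had a promoter summit in 8 of 11 (72.7%), against 46.7% of all protein-coding genes. A summit lay within 10 kb in 10 (90.9%), against 74.4%, with a median strongest signal of 392. The genes of this group had a median of 7 annotated TSSs. Of all protein-coding genes with 6 or more TSSs, 70.3% had a summit within 1 kb and 93.4% within 10 kb. Psmd6 had the strongest promoter summit of all 49 genes, 515 at 20 bases upstream (chr14:14120861-14121156), with 254 in replicate 1 and 266 in replicate 2. It ranked 1177 of the 73465 optimal peaks. Psmd1, a large scaffold subunit, had 406 at 39 bases upstream (208 and 201), without a match. It had 455 at 4.74 kb upstream (223 and 233), with a match. Weaker Psmd1 summits, of 81.8 at 1.70 kb upstream and 39.7 at 1.12 kb downstream, also held a match. Psmd11 had 301 at 0.134 kb upstream (147 and 154).

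Psmd8 had 203 at 0.119 kb upstream (89.2 and 116), with the lowest best score of the strongest summits, 2.30. A weaker promoter summit of Psmd8, of 60.8 at 0.710 kb downstream (21.3 and 38.5), held a match that scored 19.8. Psmd3 had 162 at 0.206 kb upstream (77.3 and 87.1) and 410 at 9.62 kb downstream, near Csf3 (217 and 194). Psmd7, part of the deubiquitinase module, had 109 at 57 bases upstream, with 41.7 in replicate 1 and 67.6 in replicate 2. The promoter signals of Psmd2 and Psmd12 were low, at 39.1 and 36.0, while their strongest summits had 405 at 9.25 kb upstream in an intron of Ece2 and 379 at 6.13 kb upstream near Pitpnc1. At Psmd2 the promoter peak had 27.6 in replicate 1 and 12.0 in replicate 2 and was not in the conservative list.

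Psmd13 and Psmd4 were bound only outside the promoter. Psmd13 had 450 at 8.90 kb downstream near Cox8b (230 and 220). Psmd4, a ubiquitin receptor, had 82.4 at 3.76 kb downstream (30.7 and 51.7). Psmd14, the deubiquitinase of the particle, had no summit within 10 kb.

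Of the 6 activator and inhibitor genes, 4 had a summit within 10 kb and the same 4 had one within 1 kb. Psme3, the nuclear activator, had the strongest summit of all 49 genes, 562 at 3.96 kb downstream (chr11:101323636-101323954), nearest to Aoc2, with 284 in replicate 1 and 280 in replicate 2. Its promoter summit had 42.8 and no match. Psme1 and Psme2, the interferon-induced activator pair, lie side by side and shared 4 peaks, of which the strongest had 120 in an intron of Emc9 (54.3 and 63.1). Their promoter summits had 29.4 and 20.2. That of Psme2 lay in an untranslated exon of Rnf31, nearest to the start of Rnf31. It was not in the conservative list, which held another peak within 1 kb of a start of Psme2. Psmf1, the inhibitor, had 281 at 4.30 kb upstream (133 and 149) and 29.0 at its promoter, a peak that was not in the conservative list. Psme4 and Psme2b had none within 10 kb.

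All 6 assembly genes had a summit within 10 kb and 4 had one within 1 kb. Psmd9, a chaperone of the ATPase ring, had 547 in an intron, 2.34 kb downstream and nearest to the start of Hpd (275 in replicate 1 and 276 in replicate 2). Psmg3 had 328 at 9.33 kb downstream in an intron of Tmem184a (163 and 166) and 135 at 0.907 kb upstream, the masked match shown above. Psmg4 had 283 at 8.59 kb upstream (142 and 140).

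Psmg1 had 171 in a coding exon, 6.06 kb downstream (85.5 and 86.0), and 40.7 in its promoter. Psmg2 had 128 at 0.873 kb downstream in its intron (51.3 and 75.2). Psmd5 had 97.6 at 2.23 kb downstream (52.1 and 45.6), and its promoter peak of 21.5 was not in the conservative list, which held another peak within 1 kb of a start.

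The 7 genes without an optimal summit within 10 kb differed in how far the next one lay. The nearest was at 10.4 kb for Psmb2, 11.8 kb for Psme4, 13.7 kb for Psma5, 20.1 kb for Psmc2, 29.5 kb for Psme2b, 35.5 kb for Psmd14 and 45.6 kb for Psma8. Its signal was 313 at Psme4, 270 at Psma5 and 228 at Psmc2, and 52.2 or less at the other four. The authors' unfiltered list from both replicates holds 300000 peaks, and in it the strongest within 10 kb had 21.3 at Psma5, 20.4 at Psma8 and 19.6 at Psme4. These ranked 72534, 74334 and 76057, around the length of the optimal list. The strongest there had 15.7 at Psmc2, 11.2 at Psmd14 and 5.85 at Psmb2, and Psme2b had none.

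The optimal list passed a reproducibility filter, but the kind of agreement it required is unknown. Some of its summits had no peak within 150 bases in 1 replicate, such as that of 4.63 at Psmb10, unmatched in replicate 1. How far the filter sets the likeness of the replicates at these summits therefore cannot be told, and the likeness is given as a description. All 42 strongest summits had a peak within 150 bases in both replicates, and all were in the conservative list. Of the 104 summits 99 were matched in both replicates, and of the 35 at promoters 31. Each replicate list holds 300000 peaks and no rank limit was set, so a match can be a weak peak. The summit of 17.9 at Psmb3, for example, was matched at rank 221751 in replicate 1. The conservative list held 89 of the 104 and 28 of the 35. The ratio of the 2 ranks had a median of 1.12 over the strongest summits and was largest at Psmd3, at 1.83. Spearman's rho of the replicate signals was 0.982 over the 41 different strongest peaks and 0.958 over the 99.

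**Figure D4:**
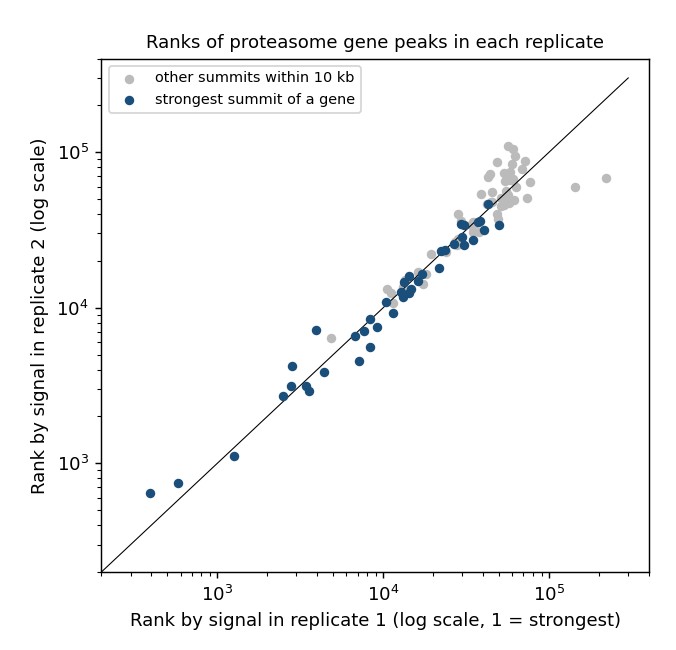
Rank by signal of each summit of a proteasome gene in replicate 1 (x axis) and replicate 2 (y axis), both on log scales with 1 the strongest peak; blue points are the strongest summit of a gene, grey points other summits, and the line marks equal rank. The blue points follow the line, with the largest rank ratio of 1.83 at Psmd3, and the grey points spread most among weak peaks.

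Other genes of the ubiquitin and proteasome pathway were taken from a list of 41 symbols, of which 36 matched. A summit lay within 10 kb of 31 (86.1%), against 74.4% of all protein-coding genes, and within 1 kb of 24 (66.7%), against 46.7%. Of the 36, 26 (72.2%) had a CpG-rich promoter, and all protein-coding genes with such promoters had shares of 91% and 66.9%. The median strongest signal was 153, against 240 over all bound protein-coding genes. The strongest were at Adrm1, a ubiquitin receptor of the proteasome, with 582 at 0.099 kb upstream, at Ube2l3, a conjugating enzyme, with 538 at 7.56 kb upstream, and at Uchl5, a deubiquitinase of the regulatory particle, with 499 at 0.103 kb upstream. Akirin2, Ecpas, Tap1, Uba6 and Zfand2a had none within 10 kb. A motif was found at the strongest summit in 18 of the 31 (58.1%), against 77.8% of all bound protein-coding genes.

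Promoters were also searched for words of factors known to act on such genes, on both strands from 250 bases before to 50 after the gene's start. The core TGACNNNGC of the antioxidant response element, bound by Nfe2l1 and Nfe2l2, occurred in 6 of 49 promoters (12.2%) and in 12.6% of all protein-coding promoters. CCAAT occurred in 18 (36.7%) and 38.6%. The YY1 core AAGATGGCG occurred in 3 (6.12%), at Psmb6, Psmc5 and Psmd7, and in 1.70% of all and 3.32% of CpG-rich promoters. At Psmd7 this word lies inside the bases counted as its CTCF match, which scored 11.2, so the same bases count for both. A match to such a word describes the letters of the promoter only.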

How the data were processed

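The CTCF ChIP-seq data were mm10 peak lists for each of 2 replicates, for both pooled, and for 2 lists filtered for reproducibility (IDR), optimal and conservative, made from these lists per the deposited descriptions. The signal of each peak is an enrichment value deposited by the authors; for its normalization, the aligner, the peak caller and the IDR threshold, the entry is: not given in the sources used here. The lists hold no read counts, so sequencing depth is unknown and no counting interval was given. Values were used to rank and describe peaks within a list. No control was analysed here.

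The summit was the peak start plus the deposited offset, and it was assigned to every gene with a GENCODE M21 TSS within 10 kb or 1 kb. A CTCF matrix was built in 6 rounds from a consensus seed, with a pseudocount of 1. Its training set was the 5000 peaks of highest signal on even-numbered chromosomes over 10 kb from every proteasome gene TSS. Replicate peaks were matched within 150 bases. The members and gene lists were chosen with earlier results of these data known. Named were all members with a summit within 1 kb, the 5 strongest and those without one, with further members as examples; of other pathway genes, the 3 strongest and those without a summit. Sequences were those of the 6 strongest promoter matches, plus those said to be chosen later. The summit assignment and motif search were tested on simulated data. As alternatives, the conservative list, the stronger part of the optimal list, single replicates, other start sites, windows and motif thresholds were tried. Python 3.11.15, numpy 2.4.6, scipy 1.17.1, pysam 0.24.0, matplotlib 3.10.9 and samtools 1.23.1 were used.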

Additional observations from a re-analysis of the deposited data

How the results depend on the processing

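The count of genes with a summit within 10 kb, 42 as reported, ran under the alternatives tried between 36 with a 5 kb window and 49 with a 50 kb window. Of those within 1 kb, 26 fell to 16 when peaks at or below the median signal were dropped (background 25.5%), because 10 genes had no stronger promoter summit. The motif count at the strongest summit was 19 at the stricter threshold, by construction. The median strongest signal was 283 with protein-coding transcript starts only; the cause was not tested. Taking 1 replicate alone, with its strongest 73465 peaks, gave 43 to 45 genes within 10 kb, 24 to 28 within 1 kb, 39 with a motif in either, and a median signal of 136 to 154 on the replicates' own scale. The conservative list added Psma8 and Psme4 within 10 kb; within 1 kb it added Psmb1, Psme4 and Psmg4 and lost Psmd2 and Psmf1. Within 10 kb, replicate 1 alone added Psma5, Psma8 and Psmc2, and replicate 2 alone added Psma8. Within 1 kb, replicate 1 alone added Psmb9 and Psmd13. Replicate 2 alone added Psma4 there and lost Psma6, Psmd5 and Psme2. Using the 5′ end of the gene only lost Psmb1, Psmb9, Psmd4 and Psmd13 within 10 kb, and Psma6 and Psmf1 within 1 kb. Protein-coding transcript starts lost Psmb1 within 10 kb and Psmd5 within 1 kb. No paired analysis was possible because the series has 1 group. Depth is unknown, so weak promoter summits are the least certain values.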
